A study of Mus musculus with 18 samples.

Results

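The genes described are 9 that B cells and their precursors use: Cd79a, Cd79b, Ms4a1, Pax5, Ebf1, Vpreb1, Vpreb3, Igll1 and Rag1. They were taken by symbol from a table of 18585 genes measured in mouse forepaws, and all 9 have a row in it. A filter on low values kept 8 of the 9, as it kept 13809 of all genes. Pax5 did not pass it, so its values are given without a test.

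B cells arise in bone marrow. Their precursors first cut and join the immunoglobulin heavy chain gene with the RAG recombinase, and then carry the new heavy chain to the surface with a surrogate light chain, together with the signalling chains Cd79a and Cd79b, as the pre-B cell receptor. After the light chain gene is joined, the surrogate chain is switched off, while Cd79a and Cd79b stay as the signalling part of the mature B cell receptor. Ebf1, the E proteins and Pax5 are transcription factors that set up and hold this programme, and the small bones of a paw contain marrow.

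The libraries came from forepaws of C57BL/6 mice, either wild type (WT) or lacking Sema3b (Sema3b-/-), a secreted semaphorin, and from either control or arthritic animals. Each genotype had 4 control and 5 arthritis libraries, 18 in all. The labels name neither the agent that induced arthritis nor the age of the mice, and do not say whether animals were pooled or whether replicates came from separate animals; p-values then measure the spread between these samples, which may be technical. RNA of the whole paw was sequenced with CEL-seq, which primes on the poly(A) tail, so bone, marrow, muscle, skin and joint tissue contribute to each value. In such bulk RNA, fewer cells of a type and less RNA per cell cannot be told apart.

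Read totals, recovered from the deposited normalized counts, ran from 1732783 in Sema3b-/- control replicate 1 to 19464892, with a median of 7279063.5. Sema3b, the targeted gene, lay between 23.7 and 67.5 normalized counts in WT libraries and between 0 and 7.20 in Sema3b-/- libraries. Sex, read from Xist and Y-linked genes, was uneven: the WT controls were 4 females, the Sema3b-/- controls 2 females and 2 males, WT arthritis 1 female and 4 males, and Sema3b-/- arthritis 4 females and 1 male. Titles of 3 arthritis libraries are worded unlike the other arthritis titles, and all controls share another wording, so a sample series cannot be told apart from treatment. The column of Sema3b-/- arthritis replicate 5 carries a control suffix in the deposited table, while the sample's title and treatment label say arthritis; the labels were followed, its myeloid marker mean of 10.1 (log2) lay between 9.47 and 10.4 of the other Sema3b-/- arthritis libraries and above the controls' 8.28 to 9.44, and the counts and medians that rest most on it are also given without it.

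Promoter sequences are printed for 4 of the genes whose levels moved together across the libraries, to show where motifs of B-lineage transcription factors lie near their starts. RefSeq windows of GRCm38.p6, from 250 bases before to 50 bases after the start, were at hand for 7 of the 9 genes. Capitals mark matches on either strand to CAGGTG, an E-box bound by E2A (Tcf3), to ATTTGCAT, the octamer of Oct factors and their coactivator Pou2af1, or to CCCNNGGG, the core of the Ebf1 site; the sequences run 5′ to 3′ on the strand of the gene. They lie at chr7:24897247-24897546 (plus strand), chr16:16869206-16869505 (minus), chr16:16863936-16864235 (minus) and chr10:75948050-75948349 (plus). For Vpreb1 and Vpreb3 the GENCODE gene models given below start upstream of these windows, at 16870843 and 75943057.
Cd79a: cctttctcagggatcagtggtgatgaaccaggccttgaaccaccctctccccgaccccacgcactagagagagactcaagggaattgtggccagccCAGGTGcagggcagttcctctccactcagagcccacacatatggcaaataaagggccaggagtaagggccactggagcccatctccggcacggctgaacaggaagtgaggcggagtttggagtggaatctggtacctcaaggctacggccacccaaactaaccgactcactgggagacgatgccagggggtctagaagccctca
Vpreb1: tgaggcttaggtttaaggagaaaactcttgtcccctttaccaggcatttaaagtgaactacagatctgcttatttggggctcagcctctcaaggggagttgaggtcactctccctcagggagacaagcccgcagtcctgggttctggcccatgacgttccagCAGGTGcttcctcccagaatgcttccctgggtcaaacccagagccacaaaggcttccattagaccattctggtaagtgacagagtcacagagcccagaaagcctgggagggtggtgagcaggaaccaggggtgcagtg
Igll1: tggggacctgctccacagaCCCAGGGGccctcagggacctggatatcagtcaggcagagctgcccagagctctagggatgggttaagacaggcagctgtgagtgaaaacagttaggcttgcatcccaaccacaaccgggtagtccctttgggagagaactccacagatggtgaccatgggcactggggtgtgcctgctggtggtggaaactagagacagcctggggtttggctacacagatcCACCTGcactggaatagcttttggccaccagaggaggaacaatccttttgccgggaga
Vpreb3: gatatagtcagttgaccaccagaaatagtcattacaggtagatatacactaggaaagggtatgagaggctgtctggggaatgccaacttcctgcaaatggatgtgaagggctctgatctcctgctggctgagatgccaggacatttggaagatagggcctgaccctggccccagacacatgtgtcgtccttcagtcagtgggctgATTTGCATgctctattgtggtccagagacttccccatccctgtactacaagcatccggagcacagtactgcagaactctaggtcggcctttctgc

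Cd79a held CAGGTG at -154 to -149 from its start and Vpreb1 at -88 to -83. Igll1 held the complement CACCTG at -8 to -3 and a match to CCCNNGGG at -231 to -224, and Rag1 held CAGGTG at -135 to -130. The E-box letters were thus present in 4 of the 7 genes with a window (Ebf1 has 2), against 22.6% of 27025 genes. The octamer was found in Vpreb3 at -45 to -38, which made it 1 of 7 genes, against 1.97% of all. The Ebf1 core CCCNNGGG was in 1 of 7 genes, against 15.4% of all. A longer form of the Ebf1 site, with a further fixed base at each end, was in 0 of 7 genes, against 1.06% of all. The windows of Pax5 and Ebf1 held none of these letters. Only exact matches were counted, so a window without a match may still hold a site that departs from these letters. Vpreb1 and Igll1, which encode the 2 parts of the surrogate light chain, are neighbours on chromosome 16, with RefSeq starts 5270 bases apart.

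B-lineage genes were lower in arthritic than in control forepaws. With the arthritis difference averaged over both genotypes, 6 of the 8 tested genes fell at an adjusted p under 0.05 by limma over all 13809 genes: Cd79a, Cd79b, Vpreb1, Vpreb3, Igll1 and Rag1. Across all tested genes 10.9% fell by the same test. All 8 values were negative, with a median log2 fold change of -1.36, against -0.01 over all tested genes. Ms4a1 (-1.16) and Ebf1 (-0.31) did not pass. Myeloid marker genes moved the other way in this comparison: 9 of 10 rose, against 12.6% of all tested genes, and Lyz2, the lysozyme of macrophages and granulocytes, rose by 1.74.

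**Figure D1:**
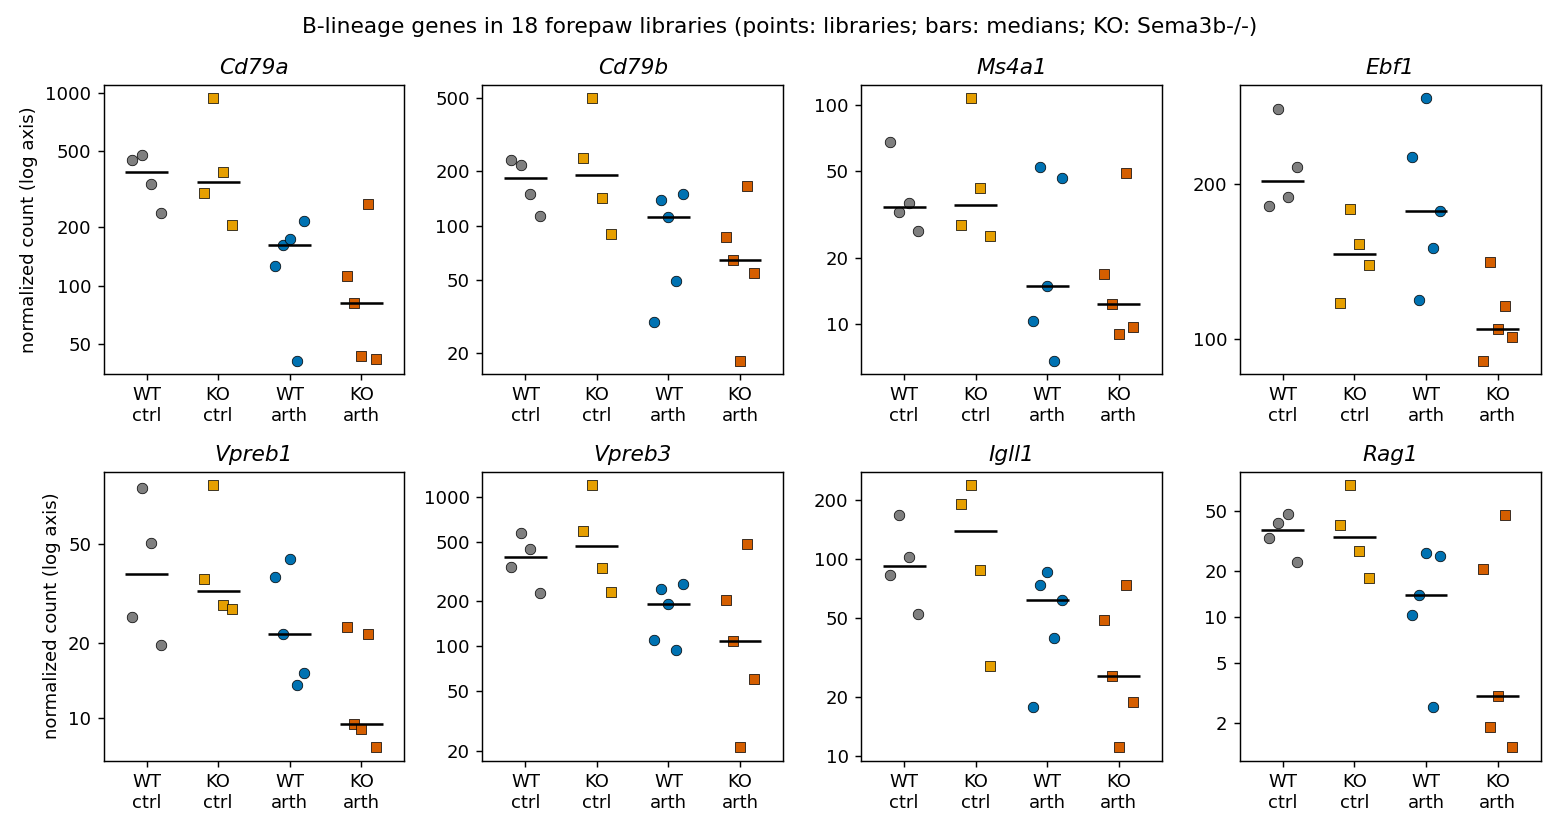
Normalized count (log axis) of 8 B-lineage genes in 18 forepaw libraries of 4 groups; points are libraries and bars are group medians. Most arthritis libraries sit below the controls, Sema3b-/- control replicate 2 is the highest point for 7 of the 8 genes, and Ebf1 shows the smallest arthritis difference (-0.31 on the log2 scale).

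Cd79a and Cd79b form the signalling dimer of the pre-B and B cell receptor. Cd79a (chr7:24897381-24902197, plus strand, mm10) measured 445, 477, 334 and 239 normalized counts in WT control replicates 1 to 4 and 303, 936, 386 and 205 in the Sema3b-/- controls. In WT arthritis it measured 126, 162, 175, 40.8 and 217, and in Sema3b-/- arthritis 113, 81.5, 43.2, 263 and 41.7. All 5 WT arthritis libraries lay below all 4 WT controls, and 4 of 5 Sema3b-/- arthritis libraries lay below all Sema3b-/- controls, the exception being replicate 4. A gap of this kind in WT, arthritis below control, was found in 4.71% of tested genes.

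Averaged over both genotypes Cd79a fell by 1.84 on the log2 scale (SE 0.41, adjusted p = 0.00475), a level 3.59-fold lower. In Sema3b-/- mice alone it fell by 2.18 (SE 0.57, adjusted p = 0.0232). That call ended without Sema3b-/- control replicate 2 (adjusted p = 0.0627) or 3 (0.0542) or Sema3b-/- arthritis replicate 2 (0.0503) or 5 (0.0573). In WT mice the value was -1.51 (SE 0.57, adjusted p = 0.145), which did not pass. The averaged Cd79a call held whichever 1 of the 18 libraries was left out, with adjusted p up to 0.0116. In the authors' deposited table, Cd79a in Sema3b-/- arthritis against its control had a log2 fold change of -2.08 with an adjusted p of 0.0347, the 1 gene of the 9 called there, where 3.13% of genes with an adjusted p fell.

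Cd79b (chr11:106311341-106314762, minus strand) measured 229.9, 216, 149 and 113 in WT controls and 235, 501, 142 and 89.9 in Sema3b-/- controls. The arthritis libraries gave 29.6, 138, 112, 49.3 and 148 in WT and 86.8, 64.4, 18.1, 166 and 54.9 in Sema3b-/- mice. All 10 arthritis libraries were below the median of the 8 controls, and 6 of them were below the lowest control. Cd79b fell by 1.36 in the averaged comparison (SE 0.44, adjusted p = 0.0339), a call that ended when any of 7 libraries was left out: WT control replicates 1, 2 or 3, Sema3b-/- control replicates 1 or 2, WT arthritis replicate 4 or Sema3b-/- arthritis replicate 5 (adjusted p up to 0.0642). Within WT the value was -1.07 (SE 0.62, adjusted p = 0.328) and within Sema3b-/- mice -1.65 (SE 0.62, adjusted p = 0.0893).

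Vpreb1 and Igll1 (the lambda 5 protein) pair as the surrogate light chain, and Vpreb3 encodes a related protein of B cell precursors that binds immunoglobulin chains inside the cell. Vpreb3 (chr10:75943057-75949657, plus strand) measured 340.4, 569, 446 and 227 in WT controls and 595, 1202, 336 and 230.3 in Sema3b-/- controls. It measured 111, 243, 191, 94.4 and 262 in WT arthritis and 205, 108, 21.1, 480.1 and 60.4 in Sema3b-/- arthritis. The 5 Sema3b-/- arthritis values spanned from far below every control to above the median control, with replicate 3 lowest and replicate 4 highest. Vpreb3 fell by 1.67 in the averaged comparison (SE 0.51, adjusted p = 0.0283). Within genotypes it did not pass, at -1.16 in WT (adjusted p = 0.365) and -2.17 in Sema3b-/- mice (adjusted p = 0.0604).

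Igll1 (chr16:16860671-16863985, minus strand), whose promoter above holds 2 of the motif matches, measured 82.9, 168, 102 and 52.9 in WT controls and 190.2, 239, 87.9 and 28.8 in Sema3b-/- controls. Arthritis libraries gave 17.7, 73.7, 86.2, 39.98 and 62.1 in WT and 49.2, 25.6, 11.1, 74.1 and 18.8 in Sema3b-/- mice. All 10 were below the control median, although Sema3b-/- control replicate 4 was lower than 6 of the 10. Igll1 fell by 1.36 in the averaged comparison (SE 0.45, adjusted p = 0.0377), and the call ended when any of 11 of the 18 libraries was left out (adjusted p up to 0.0772). Within WT the value was -0.91 (adjusted p = 0.421) and within Sema3b-/- mice -1.81 (adjusted p = 0.0711).

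Vpreb1 (chr16:16868403-16870843, minus strand) measured 25.4, 83.9, 50.7 and 19.6 in WT controls and 36.4, 86.6, 28.5 and 27.6 in Sema3b-/- controls. It measured 36.96, 21.8, 43.7, 13.6 and 15.2 in WT arthritis and 23.3, 9.48, 9.05, 21.8 and 7.64 in Sema3b-/- arthritis. In Sema3b-/- mice the 2 groups did not overlap, which was so for 6.11% of tested genes with arthritis below control, while in WT they did. Vpreb1 fell by 1.56 in Sema3b-/- mice (SE 0.50, adjusted p = 0.0468), a call that was kept in 7 of the 18 fits with 1 library left out (adjusted p up to 0.132). In WT the value was -0.67 (SE 0.50, adjusted p = 0.447), and averaged over genotypes Vpreb1 fell by 1.12 (SE 0.35, adjusted p = 0.0285). Reads of Vpreb1 could also come from Vpreb2, a near-identical copy, so its values are less certain than those of the others. The Vpreb1 gene also overlaps Top3b on the opposite strand, from position 16870736. That is near the start of the GENCODE model of Vpreb1 (16870843), and upstream of the RefSeq window printed above (16869206 to 16869505).

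Rag1 is the catalytic subunit of the recombinase that joins antigen receptor gene segments, in B cell precursors and in the thymus. Rag1 (chr2:101638282-101649501, minus strand) measured 33.2, 41.5, 47.8 and 23.02 in WT controls and 40.5, 74.3, 27.3 and 17.99 in Sema3b-/- controls. In arthritis it measured 10.3, 13.96, 26.4, 2.55 and 25.4 in WT and 20.7, 1.90, 3.02, 47.1 and 1.39 in Sema3b-/- mice. Sema3b-/- arthritis replicates 2, 3 and 5 were near the limit of detection, the lowest value resting on 2 reads, while replicate 4 was above 6 of the 8 controls. Rag1 fell by 1.82 in the averaged comparison (SE 0.57, adjusted p = 0.0283), a call not made by edgeR (-1.32, adjusted p = 0.0899) or DESeq2 (-1.33, adjusted p = 0.0603) on the recovered reads. Its values within WT (-1.43, SE 0.80, adjusted p = 0.312) and within Sema3b-/- mice (-2.20, SE 0.80, adjusted p = 0.0784) did not pass. Rag1 overlaps B230118H07Rik on the same strand, and reads of the 2 could be mixed.

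The averaged calls of Vpreb1, Vpreb3 and Rag1 each ended without WT control replicate 2, WT control replicate 3, Sema3b-/- control replicate 2, WT arthritis replicate 4 or Sema3b-/- arthritis replicate 5, and that of Rag1 also without Sema3b-/- arthritis replicate 2. Their adjusted p then reached at most 0.0677 for Vpreb1, 0.056 for Vpreb3 and 0.0548 for Rag1. Without any 1 of the first 5 of these libraries, 1 of the 8 genes was called, Cd79a. The log2 fold changes themselves moved less, between -1.27 and -0.93 for Vpreb1, between -1.94 and -1.38 for Vpreb3 and between -2.14 and -1.58 for Rag1.

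Ms4a1 encodes CD20, a surface protein that appears late in precursors and stays on mature B cells. Ms4a1 (chr19:11249675-11266241, minus strand) measured 67.4, 32.5, 35.6 and 26.4 in WT controls and 28.3, 107, 41.6 and 25.2 in Sema3b-/- controls. It measured 10.3, 51.9, 14.9, 6.80 and 46.3 in WT arthritis and 16.8, 12.3, 9.05, 48.8 and 9.72 in Sema3b-/- arthritis. Of the 10 arthritis libraries 7 were below the lowest control, and the other 3 (Sema3b-/- arthritis replicate 4 and, in WT, arthritis replicates 2 and 5) were above the control median. The averaged value was -1.16 (SE 0.43, adjusted p = 0.0573). It passed when any of those 3 libraries was left out, with adjusted p down to 0.0235.

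Ebf1, the early B cell factor, is needed for B cells to form but is also expressed by adipocytes and by stromal and perivascular cells. Ebf1 (chr11:44617317-45008091, plus strand) measured 181, 279.7, 189 and 217 in WT controls and 117, 179, 153 and 139 in Sema3b-/- controls. It measured 226, 119, 294, 151 and 177 in WT arthritis and 90.7, 141, 105, 116 and 101 in Sema3b-/- arthritis. No arthritis comparison passed for Ebf1, with values of -0.21 in WT (SE 0.23, adjusted p = 0.612), -0.41 in Sema3b-/- mice (SE 0.23, adjusted p = 0.243) and -0.31 on average (95% interval -0.64 to 0.02). Pax5, which commits precursors to the B lineage, gave 10 reads over the 4 WT controls, all in replicates 2 and 3, 0 over the 4 Sema3b-/- controls, 2 over WT arthritis and 1 over Sema3b-/- arthritis. A count of 0 allowed up to 1.68 to 12.1 normalized counts in a single Sema3b-/- control. WT control replicates 2 and 3 held 6.32 and 2.81. Pax5 did not pass the filter, so a difference between groups was not tested.

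**Figure D2:**
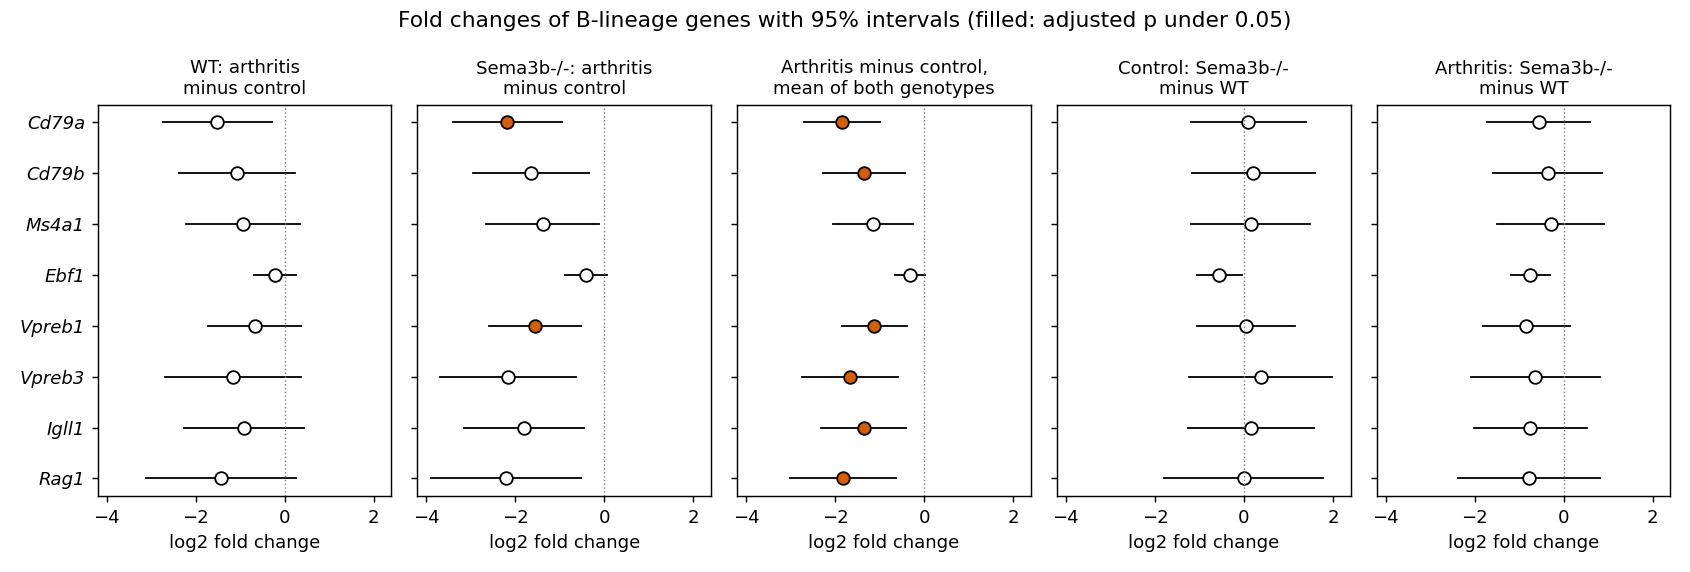
Log2 fold change (points) with 95% intervals (lines) of the 8 tested genes in 5 comparisons; filled points have an adjusted p under 0.05. Every point lies below 0 in the 3 arthritis comparisons, filled points number 0 in WT, 2 in Sema3b-/- and 6 in the average of both, and none is filled in either genotype comparison.

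Within genotypes fewer genes passed. In WT forepaws 0 of 8 were called by limma (1 had an unadjusted p under 0.05, and edgeR and DESeq2 also called 0), against 1.58% of all tested genes lower. The median over the 8 was -1.002. In Sema3b-/- forepaws Cd79a and Vpreb1 fell, 2 of 8, against 5.55% of all tested genes lower, and 7 of 8 had an unadjusted p under 0.05. Their median was -1.73, or -1.63 without Sema3b-/- arthritis replicate 5. Without Sema3b-/- arthritis replicate 4, the arthritis library with the highest B-lineage levels, 6 of 8 passed. Without Sema3b-/- control replicates 2 or 3 or Sema3b-/- arthritis replicates 2 or 5, 0 of 8 did.

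The difference in arthritis effect between genotypes did not pass the test in any gene. The interaction, arthritis effect in Sema3b-/- minus that in WT, was negative for all 8 genes with a median of -0.72, and limma called 0 of 8 at adjusted p of 0.974 or above, with 0 of 8 at an unadjusted p under 0.05 and 0% of all genes called. Its intervals were wide: for Cd79a -0.67 with a 95% interval of -2.39 to 1.06, and for Vpreb3 -1.01 with one of -3.17 to 1.16. Both intervals reached past a doubling of the difference in the one direction and past an equal response in the other, so these libraries do not show that the genotypes responded alike. Without Sema3b-/- arthritis replicate 5, whose column carries the control suffix, the interaction median was -0.47 (Cd79a -0.41, Vpreb3 -0.80), again with 0 called.

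Between genotypes 0 of 8 genes were called in controls and 0 of 8 in arthritis, where limma called 0.0145% and 0.0217% of all genes. In controls 6 of 8 values were positive, with a median of 0.13, and Sema3b-/- control replicate 2 weighed on them: without it Cd79a went from 0.10 to -0.32 and Vpreb3 from 0.37 to -0.06. In arthritis all 8 values were negative, with a median of -0.69 (-0.39 without Sema3b-/- arthritis replicate 5) and a range from -0.84 (Vpreb1) to -0.29 (Ms4a1). The intervals reached from -1.71 to 0.58 for Cd79a and from -2.08 to 0.81 for Vpreb3, so neither a 2-fold lower nor an equal level was outside them.

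Ebf1 differed from the other members in how it stood between the control genotypes. All 4 Sema3b-/- controls were below all 4 WT controls, a gap found in 2.13% of tested genes, and the value was -0.55 (SE 0.24, unadjusted p = 0.0329, adjusted p = 0.828 by limma). In arthritis the Sema3b-/- value was lower by 0.75 on the log2 scale (SE 0.21, unadjusted p = 0.00245, adjusted p = 0.305), with 4 of 5 Sema3b-/- libraries below the lowest WT library. Neither passed the adjustment over all genes. In arthritis Ebf1 did not stand apart in size: Vpreb1 (-0.84, SE 0.47) and Rag1 (-0.78, SE 0.76) had lower values, with larger SE. Adipocyte marker genes were lower in the same 2 comparisons, 9 of 9 in each, with medians of -0.70 in controls and -1.04 in arthritis and 0 called. Their summed level ran from 9622 to 15642 in WT controls, from 5321 to 8886 in Sema3b-/- controls, from 4860 to 15505 in WT arthritis and from 3610 to 11047 in Sema3b-/- arthritis, none of the 9 was at 0 in all libraries, and their part in the Ebf1 values was not tested. Pericyte and mural cell genes had 5 of 8 negative values in each of the same 2 comparisons, with medians of -0.06 in controls and -0.09 in arthritis and 0 called. The first gene of that list, Rgs5, stood at -0.92 in controls (SE 0.34, unadjusted p = 0.0152, adjusted p = 0.802 by limma). In arthritis Rgs5 stood at -1.45 (SE 0.31, unadjusted p = 0.00016, adjusted p = 0.132 by limma). The part of these cells in the Ebf1 values was not tested.

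Other genes of the B lineage, and genes of its niche, were read from 5 lists with 65 tested genes. Of these, 8 were genes for the niche and survival of B cells, which are not B-lineage genes themselves. In the averaged comparison 21 of the 65 fell (32.3%, against 10.9% of all tested genes) and 2 rose (3.08%, against 12.6%). The niche list gave 1 of the falls (Lepr) and 1 of the rises (Cxcl13). Of 19 tested surface and signalling genes, 8 fell and 0 rose (median -0.72). Values were negative for 13 of the 19 and positive, without a call, for the rest. The log2 fold changes were -2.59 for Faim3, the IgM Fc receptor also called Fcmr, and -2.35 for Fcer2a, the low-affinity IgE receptor CD23 (SE 0.50, adjusted p = 0.00315). They were -1.39 for the Src family kinase Blk, -1.35 for the Fc receptor-like gene Fcrla, -1.319 for the inhibitory lectin Siglecg, -1.04 for the class II peptide-loading regulator H2-Ob, -0.65 for the tetraspanin Cd37 and -0.61 for Ralgps2. Fcer2a had group medians of 74.3 normalized counts in WT controls, 44.1 in Sema3b-/- controls, 17.9 in WT arthritis and 7.64 in Sema3b-/- arthritis.

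Among 18 tested further genes of B cell precursors, 7 fell and 0 rose, with a median of -0.61 and 15 negative values. The largest fall was in Lef1, a Wnt-pathway transcription factor of early precursors (-1.82, SE 0.44, adjusted p = 0.00735). The others were Chchd10 (-1.19), Cplx2 (-0.99), Akap12 (-0.71), the chromatin remodeller Smarca4 (-0.53), Tcf3, which encodes the E2A proteins (-0.47), and Blnk, an adaptor of the B cell receptor (-0.42). Lef1, Akap12, Smarca4 and Tcf3 are used by many cell types besides B cells. A list of 12 genes for transcription factors and the receptor Cd40 gave 4 that fell and 1 that rose. Its median was -0.44, with 10 negative values. Pou2af1, the coactivator of octamer-bound factors (-1.65), the Ets factor Spib (-1.65), Bcl11a (-0.71) and Id3, an inhibitor of E proteins (-0.47), fell. Cd40, a receptor for T cell help that other immune and stromal cells carry too, rose by 0.70.

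Plasma cell genes gave 1 call of 8 tested, Sdc1 at -0.41, which epithelia also express, a share near the 10.9% of all tested genes, and a median of -0.29. The table held no row under the symbols Ighm, Ighd, Igkc, Iglc1 and Iglc2 or those of 4 heavy chain isotypes, so these could not be read. Of 8 tested genes for the niche and survival of B cells, Cxcl13, the chemokine that draws B cells into follicles, rose by 3.93 (SE 0.54, adjusted p = 0.000149) and Lepr, a receptor of marrow stromal cells, fell by 0.85. Cxcl13 had medians of 13.8 and 5.03 in WT and Sema3b-/- controls and of 91.3 and 156.8 in WT and Sema3b-/- arthritis. Its highest control value was 15.6 and its lowest arthritis value 34.9.

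**Figure D3:**
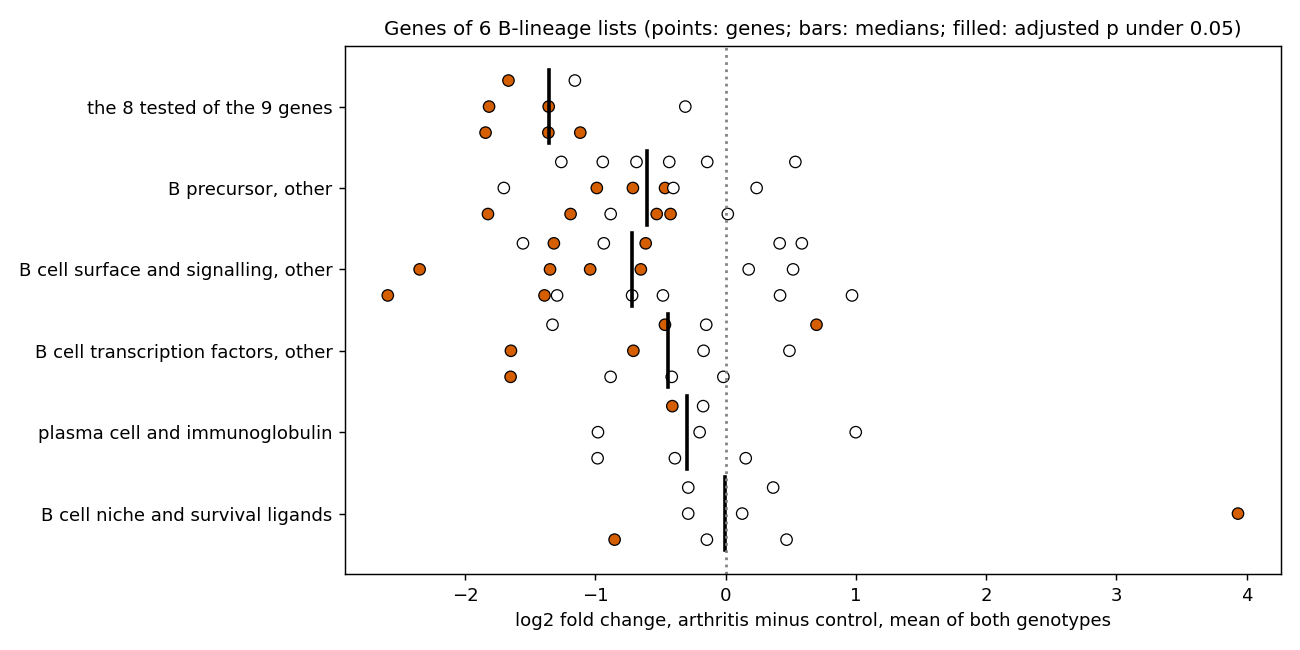
Log2 fold change, arthritis minus control averaged over both genotypes, of each tested gene (points) in 6 lists; bars are list medians and filled points have an adjusted p under 0.05. Filled points lie below 0 except Cd40 (0.70) and Cxcl13 (3.93), and the median moves from -1.36 in the top list to -0.01 in the bottom one.

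Of the 23 genes called in these 5 lists in the averaged comparison, 14 stayed called whichever library was left out. The Bcl11a call (-0.71) ended without WT control replicate 1, that of Blk without WT control replicate 1 or Sema3b-/- control replicate 2, that of Id3 without WT control replicate 4 or Sema3b-/- control replicates 2 or 3, and that of Cd37 without WT control replicates 1 or 2 or Sema3b-/- control replicates 1 or 2. The Cd40 call ended without WT control replicate 4, Sema3b-/- control replicate 3, WT arthritis replicate 4 or Sema3b-/- arthritis replicate 5. The calls of Cplx2, Blnk, Ralgps2 and Sdc1 ended without any of 6, 11, 11 and 13 libraries. Of the 14, 10 also held under the 11 other alternatives; Chchd10 (adjusted p = 0.0609) and Fcrla (0.0613) were lost with the replicate block, and Tcf3 (0.053) and Siglecg (0.0703) without the 3 differently titled arthritis libraries. With sex as a term the calls of Bcl11a (0.0572), Cd40 (0.0651), Blnk (0.0791) and Sdc1 (0.0513) ended. In Sema3b-/- mice alone 11 of the 65 genes fell (16.9%, against 5.55% of all tested genes) and 2 rose (3.08%, against 6.84%). Of these 13, Fcer2a (-2.81, adjusted p = 0.017) and Cxcl13 (5.11, adjusted p = 0.00105) stayed called in all 18 such fits; the Fcer2a call ended with the 2 groups alone (0.063) and without the differently titled libraries (0.0511). The other 11 were Lef1 (-2.25), Blk (-2.03), Pou2af1 (-1.97), Siglecg (-1.76), H2-Ob (-1.41), Lepr (-1.10), Akap12 (-0.79), Id3 (-0.70), Tcf3 (-0.68), Smarca4 (-0.48) and Cd40 (1.13), each lost without at least 2 libraries. In WT mice 1 of the 65 fell, Smarca4 (-0.58, adjusted p = 0.0359), a share of 1.54% that is near the 1.58% of all tested genes, and it was lost without 6 of the libraries.

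Across the 18 libraries 7 of the genes moved together, and Ebf1 moved with them less. Over the 21 pairs among Cd79a, Cd79b, Ms4a1, Vpreb1, Vpreb3, Igll1 and Rag1, Pearson's r of log2 (normalized count + 1) ran from 0.54 to 0.94 with a median of 0.83. Over the 7 pairs with Ebf1 it ran from 0.16 to 0.60 with a median of 0.35. With group means removed, which takes out the treatment and genotype differences, the medians were 0.72 and 0.10. These are descriptions over 18 libraries that share depth and tissue makeup, and carry no p.

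The mean log2 level of those 7 genes serves below as a B-lineage index. It ran from 6.01 to 7.16 in WT controls, from 5.82 to 8.06 in Sema3b-/- controls, from 4.52 to 6.19 in WT arthritis and from 3.78 to 6.61 in Sema3b-/- arthritis. The spread within a group was largest in Sema3b-/- arthritis (SD 1.16, n = 5; 1.23 without replicate 5), against 0.48 (n = 4) in WT controls. Sema3b-/- arthritis replicates 3 and 5 were the lowest of all libraries, at 3.78 and 4.18, and replicate 4 at 6.61 was the highest of the arthritis libraries.

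By Pearson's r with this index over the 18 libraries, the most alike of 13800 other tested genes were Fcrla (0.95), Ptprcap (0.95), Fam129c (0.94), Pou2af1 (0.92), Spib (0.92), Blk (0.90), Faim3 (0.90), Nrgn (0.89), Fam117a (0.87) and H2-Ob (0.87). Of these 10, Fcrla, Pou2af1, Spib, Blk, Faim3 and H2-Ob are on the B-lineage lists. With group means removed the first 10 were Ptprcap (0.94), Fcrla (0.93), Klhl6 (0.91), F5 (0.91), Fam129c (0.91), Treml2 (0.89), Gapt (0.89), Pou2af1 (0.89), Elane (0.88) and Spib (0.88). Elane, neutrophil elastase, is made by granulocyte precursors, and Gapt went from r = 0.16 over the groups as measured to 0.89 within them.

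Marker genes of other marrow cells were read beside the B-lineage index in each library. With group means removed, the mean log2 level of 10 granule genes of marrow neutrophil precursors (Mpo, Elane and others) had r = 0.86 and Spearman's rho = 0.89 with the index over the 18 libraries, and r = 0.89 without the 2 libraries farthest from the median. For 10 tested erythroid genes r was 0.82 and rho 0.83, with r = 0.82 without the 2 farthest. By this measure marker lists of other cells lay lower. Their r was 0.60 for osteoblast and osteocyte, 0.59 for T and NK cell, 0.48 for myeloid, 0.37 for adipocyte and 0.22 for osteoclast genes. It was -0.03 for epidermis, -0.04 for skeletal muscle and -0.28 for pericyte and mural genes. Without Sema3b-/- arthritis replicate 5, r was 0.89 for the granule and 0.82 for the erythroid genes. Over the groups as measured the order differed. There r was 0.81 for osteoblast and osteocyte, 0.79 for erythroid, 0.58 for adipocyte and 0.51 for granule genes. It was 0.50 for pericyte and mural, 0.39 for T and NK cell, 0.37 for skeletal muscle and 0.34 for epidermis. For osteoclast it was 0.18 and for myeloid genes -0.38. Sema3b-/- arthritis replicate 5 had the lowest granule (6.03) and erythroid (3.47) means of all libraries, and Sema3b-/- control replicate 2, with the highest index, had the highest erythroid mean (9.08). Examples of 2 pairs were chosen after their values were seen. The first pair, Sema3b-/- control replicate 2 and Sema3b-/- arthritis replicate 4, had granule means of 9.66 and 9.68 and indices of 8.06 and 6.61. In the second, WT control replicate 4 and WT arthritis replicate 4, granule means were 7.35 and 7.37 and indices 6.01 and 4.52. Their erythroid means were not close, at 9.08 and 7.34 in the first pair and 5.99 and 3.81 in the second. Nor were their osteoblast and osteocyte means, at 9.72 and 7.17 and at 8.46 and 6.84.

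**Figure D4:**
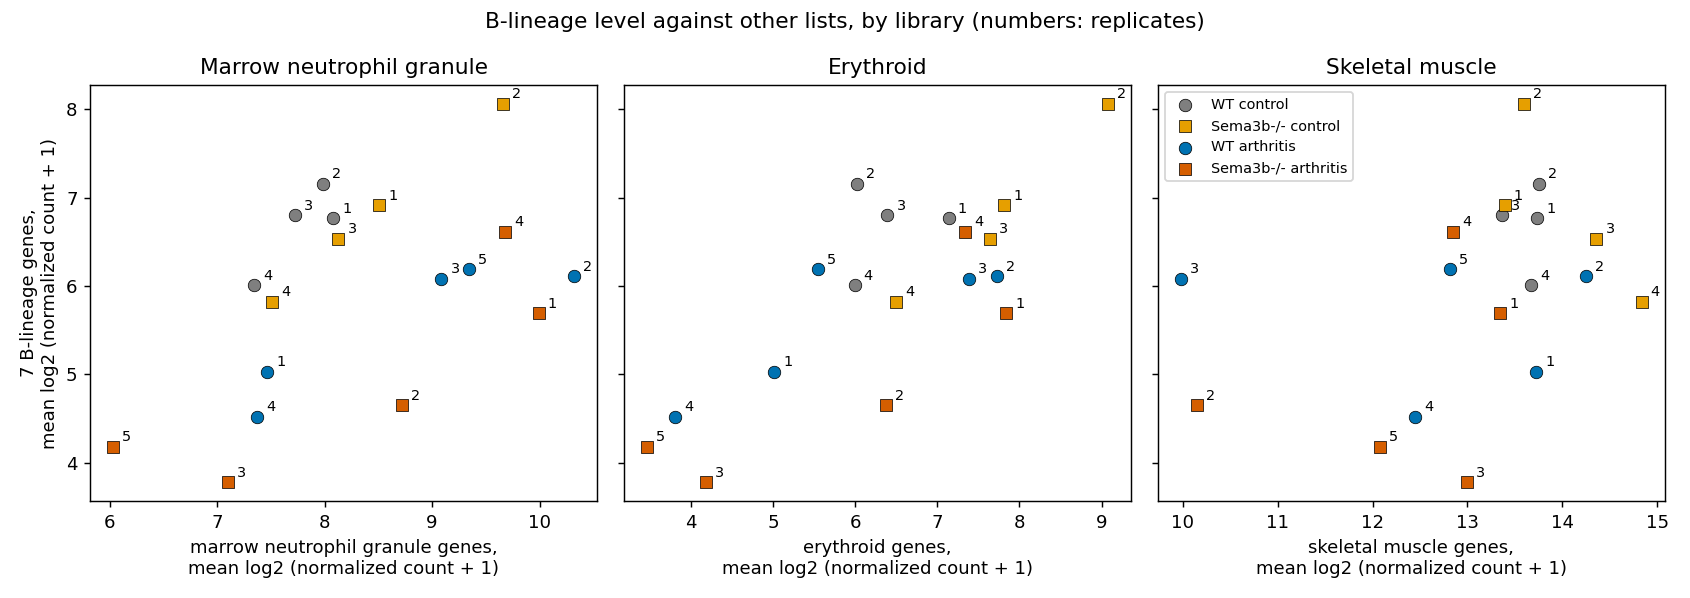
Mean log2 (normalized count + 1) of 7 B-lineage genes (vertical axis) against that of marrow neutrophil granule, erythroid and skeletal muscle genes (horizontal axes) in 18 libraries; numbers are replicates, colours and shapes are groups. Over the groups as drawn, Pearson's r was 0.51 for granule, 0.79 for erythroid and 0.37 for skeletal muscle genes. Osteoblast and osteocyte genes (0.81) and adipocyte genes (0.58) are not drawn. With group means removed, which is not drawn either, r was 0.86, 0.82 and -0.04 in the order of the panels. Sema3b-/- arthritis replicates 3 and 5 lie at the lower left of the first 2 panels.

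The granule genes were not called lower in arthritis. In the averaged comparison 0 of 10 granule genes were called (0 higher, 0 lower), with a median of 0.36, and Mpo stood at 0.32 (SE 0.57, adjusted p = 0.712). Ms4a3 (1.62, adjusted p = 0.0284) and Chi3l3 (1.46, adjusted p = 0.0322) were called higher by edgeR, and DESeq2 called these and Ctsg. By limma 1 or both of Ms4a3 and Chi3l3 were called higher without Sema3b-/- control replicate 2, WT arthritis replicate 1 or Sema3b-/- arthritis replicates 3 or 5. Their summed level ran from 3679 to 6172 in WT controls, from 4354 to 19965 in Sema3b-/- controls, from 3146 to 25868 in WT arthritis and from 1283 to 19812 in Sema3b-/- arthritis. In WT mice all 10 granule values were positive (median 0.93) while all 8 B-lineage values were negative (median -1.002). In Sema3b-/- mice the granule median was -0.22 against -1.73, and without Sema3b-/- arthritis replicate 5 it was 0.35 against -1.63.

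Erythroid genes gave 0 calls of 10 tested, and all 10 values were negative, with a median of -1.24 on average, -0.42 in WT and -2.29 in Sema3b-/- mice (-1.54 without Sema3b-/- arthritis replicate 5). The summed level of the 11 erythroid genes with a row ran from 21360 to 51487 in WT controls and from 29088 to 173963 in Sema3b-/- controls. It ran from 7185 to 82633 in WT arthritis and from 7695 to 78717 in Sema3b-/- arthritis. Osteoblast and osteocyte genes fell, 9 of 11 against 10.9% of all tested genes, with a median of -1.44, and Bglap (osteocalcin), which osteoblasts secrete into bone, fell by 3.05 (SE 0.46, adjusted p = 0.00032). T and NK cell genes gave 0 calls of 7, with a median of 0.18. None of the genes of these 4 lists was at 0 in every library, and the part of marrow, bone or blood content in the B-lineage values was not tested.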

How the data were processed

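Forepaw RNA of 18 mouse samples was sequenced by CEL-seq. The authors deposited 1 table of signal values per gene, which are read counts divided by 1 size factor per library; reads were aligned with BWA to mm10 and analysed with DESeq2 1.32, per the submitters' processing notes. Which counting tool and annotation were used, and whether molecular barcodes were counted, is not stated in the notes or labels. The authors also deposited log2 fold changes with p-values and adjusted p-values for pairs of groups, per the file headers. Dividing each library by the value of 1 read gave whole reads for 100% of values up to 2000 reads (within 0.02).

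Values were analysed as log2 (normalized count + 1), which understates changes of low genes, in genes with at least 10 in 4 libraries. limma 3.58.1 (R 4.3.3) with a robust, intensity-trended variance was fitted to all 18 libraries and 13809 genes, with Benjamini-Hochberg adjustment over all of them and a threshold of 0.05; the test was checked on simulated data. Alternatives were edgeR 4.0.16 and DESeq2 1.42.0 on recovered reads, other pseudocounts, filters and scalings, sex or replicate number as a term, and each library left out. The 9 genes and all gene lists were chosen with earlier results of these data known. All 9 genes are named in every group, other lists by their called genes and counts, and genes of like pattern by the 10 highest correlations; 1 listed gene is not reported here and was left out of the lists' counts and the ranking. Gene positions are from GENCODE M21 (GRCm38, mm10). Intervals are 95% and cover the spread between libraries; those of single counts cover counting error only.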

Additional observations from a re-analysis of the deposited data

Results flagged for a closer look

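Pax5 stood out in 2 libraries because each stood apart from the others of its group, all at 0: WT arthritis replicate 2 with 0.872 normalized counts (2 reads) and Sema3b-/- arthritis replicate 4 with 0.871 (1 read). Both values lie under the limit that a count of 0 allows. Of 35 groups of values of the 9 genes examined in this way these were the 2 found. Chance marks about 1 in 20 groups of values that vary smoothly. Where all other values of a group are 0, any read at all is marked, so that rate does not apply to these 2.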

How the results depend on the processing

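Cd79a was called lower in the averaged arthritis comparison under every alternative run, the replicate block included, and all 8 genes kept negative values in the 3 arthritis comparisons under each of them. The number called in that comparison was 6 of 8; it was 5 by edgeR and by DESeq2, where Rag1 did not pass, 3 without the 3 arthritis libraries whose titles are worded differently and ran from 1 to 7 with 1 library left out. In Sema3b-/- mice 2 of 8 were called; the count was 1 with a pseudocount of 5, without a filter or with scaling by library size, 5 by DESeq2, and 0 with the 2 groups alone or without the 3 differently titled libraries, and it ran from 0 to 6 with 1 library left out. In WT mice, between genotypes and for the interaction it was 0 throughout. Scaling by library size moved the median over all genes to -0.24 in WT arthritis, -0.13 and 0.19 between genotypes in control and arthritis, and 0.32 for the interaction.

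Replicate numbers are not stated to pair the mice: of 18 libraries 3 were closest to a library of their own number in another group, and the correlation of same-numbered libraries ran from -0.658 to 0.414 over 25 pairs. With the replicate block 1 of 8 genes was called in the averaged comparison (Cd79a) and 0 in Sema3b-/- mice.

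Uncalled values changed sign in places, and the cause was not tested. Between control genotypes Cd79a was -0.025 and Vpreb1 -0.070 with scaling by library size; Cd79b was -0.19, Ms4a1 -0.13, Igll1 -0.19 and Rag1 0.14 with sex as a term; Rag1 was 0.0068 with a pseudocount of 5, 0.17 by edgeR and 0.15 by DESeq2. With 1 library left out these ran from -0.32 to 0.41 (Cd79a), -0.24 to 0.59 (Cd79b), -0.29 to 0.43 (Ms4a1), -0.32 to 0.42 (Vpreb1), -0.062 to 0.73 (Vpreb3), -0.24 to 0.76 (Igll1) and -0.36 to 0.30 (Rag1). Between arthritis genotypes Cd79b was 0.12 and Ms4a1 0.053 with sex as a term, Ms4a1 was 0.082 without the differently titled libraries, and leaving out 1 library gave -0.72 to 0.070 (Cd79b) and -0.69 to 0.050 (Ms4a1). The interaction of Cd79b was 0.32 and of Ms4a1 0.19 with sex as a term, and that of Ebf1 0.12 with scaling by library size. With sex as a term the averaged comparison called 5 of 8 genes, with adjusted p of 0.0562 for Vpreb1, 0.0541 for Rag1 and 0.0492 for Ms4a1. Depth limits Pax5, and Rag1 in the lowest libraries, to a few reads.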

Other observations

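Within single libraries the B-lineage genes kept different proportions to each other. Ms4a1 divided by Cd79a, in normalized counts, had medians of 0.109 in WT controls, 0.111 in Sema3b-/- controls, 0.167 in WT arthritis and 0.185 in Sema3b-/- arthritis, with ranges of 0.0681 to 0.151, 0.0933 to 0.123, 0.0824 to 0.32 and 0.149 to 0.233 in the same order (up to 0.209 in the last without Sema3b-/- arthritis replicate 5). Cd79b divided by Cd79a had medians of 0.463, 0.487, 0.684 and 0.77 in the same order, with overlap in both genotypes. Rag1 divided by Cd79a had medians of 0.0917, 0.0836, 0.086 and 0.0698, and it ran from 0.0233 to 0.184 in Sema3b-/- arthritis. These ratios were computed after the values were seen and were not tested.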
